A study of Mus musculus with 12 samples.

Results

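Ccnd1, Myc, Cd44, Glul, Axin2 and Lgr5 are 6 genes commonly used to read the transcriptional output of Wnt/β-catenin signaling, and they were taken by name from the 24421 genes of a count table. The table covers 12 RNA-seq libraries of a small mouse cholangiocyte cell line (SMCC), an immortalized line of bile duct epithelial cells. There were 3 libraries for each of 4 transient transfections. The siCTL libraries received a control siRNA and the si-bcatenin libraries an siRNA against β-catenin, both for 24 hr with Lipofectamine RNAiMAX. The eGFP libraries received an eGFP plasmid and the S45Y libraries a plasmid for a stable, constitutively active β-catenin, both for 48 hr with another Lipofectamine reagent. All cells were grown in EMEM with glutamine. The share of cells that took up the siRNA or the plasmid is not given in the sources used here. The labels do not say whether libraries of a group came from separate cultures, so that p-values measure only the spread between these libraries.

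β-catenin is held at a low level by a destruction complex that contains Axin and APC and marks it by phosphorylation, first at serine 45. When a Wnt ligand binds its Frizzled and LRP receptors the complex is blocked, β-catenin enters the nucleus and acts with TCF/LEF factors on target promoters. Ccnd1 encodes cyclin D1, which drives entry into the cell cycle, and Myc a transcription factor of cell growth. Cd44 encodes a surface receptor for hyaluronan. Glul encodes glutamine synthetase, the enzyme that marks β-catenin activity in pericentral hepatocytes of the liver. Axin2 is a feedback inhibitor of the pathway and Lgr5 a receptor for R-spondins that marks stem cells in several epithelia.

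The libraries were shallow, with 221767 to 326686 counts in siCTL, 295677 to 313074 in si-bcatenin, 113481 to 122304 in eGFP and 91468 to 117419 in S45Y. In all, 10047 genes had no count in any library. Rn45s, the ribosomal RNA precursor, took 3.64 to 5.49% of the counts in siCTL, 1.61 to 2.44% in si-bcatenin, 10.03 to 15.4% in eGFP and 10.2 to 15.03% in S45Y. Reagent, hours, depth and Rn45s share all separate the siRNA libraries from the plasmid libraries, and their parts in a difference between those libraries cannot be told apart. Gapdh, an abundant message of most cells, had only 13 counts over the 12 libraries, against 817 for Actb, and Tsix had 12328 counts against 97 for Xist on the opposite strand. Whether the counting used the strand is not given in the sources used here, and where an exon overlaps a gene on the other strand their reads cannot be told apart without it. Whether the counts of any gene, the low counts of the members included, come from its own strand was not tested. Of 15 cholangiocyte markers 11 were counted, led by Krt18 (1150 counts), Spp1 (609), Krt8 (589) and Krt19 (365), while Epcam, Cftr and Aqp1 were among those at 0 in all libraries. Summed over the list, these markers were lower in every si-bcatenin library (952 to 996 CPM, a unit explained below) than in every siCTL library (1053 to 1411), and their part in the results of silencing was not tested. The ranges overlapped between eGFP (1468 to 2042) and S45Y (1737 to 2255). Of markers of other liver cells, 5 of 9 for hepatocytes (Alb, Apoa1 and Ttr among them), 5 of 10 for fibroblasts and stellate cells, 3 of 7 for endothelium and 6 of 8 for leukocytes (Ptprc among them) were at 0 in all libraries. The highest of those counted were Trf (129 counts over 12 libraries), Acta2 (180), Stab2 (50) and Cd68 (174). Summed over each of these 4 lists, CPM overlapped between treated and control libraries in both comparisons, except that endothelial markers were lower in S45Y (0 to 25.6 CPM) than in eGFP (27.9 to 58.3 CPM). The S45Y sums and the lowest eGFP sum lay near the level of 3 counts or below it, which is 24.5 to 32.8 CPM in single plasmid libraries. The part of these markers in the results of S45Y was not tested. In bulk RNA, fewer cells that make a message and less message per cell cannot be told apart.

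Levels are given as counts and as CPM, the count divided by the library total, which is scaled with edgeR's TMM factors over the 12 libraries, and expressed per 1000000 counts. A count of 0 allows up to 3 counts, which by unscaled library totals is 9.18 to 13.5 CPM in single siCTL libraries, 9.58 to 10.1 in si-bcatenin, 24.5 to 26.4 in eGFP and 25.5 to 32.8 in S45Y. This floor and the intervals on counts below cover counting error only. A member was called too low to read where edgeR's filter on low counts removed it. By this rule Ccnd1 and Myc could be read after silencing and only Ccnd1 after S45Y, while Cd44, Glul, Axin2 and Lgr5 could be read in neither comparison.

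**Figure D1:**
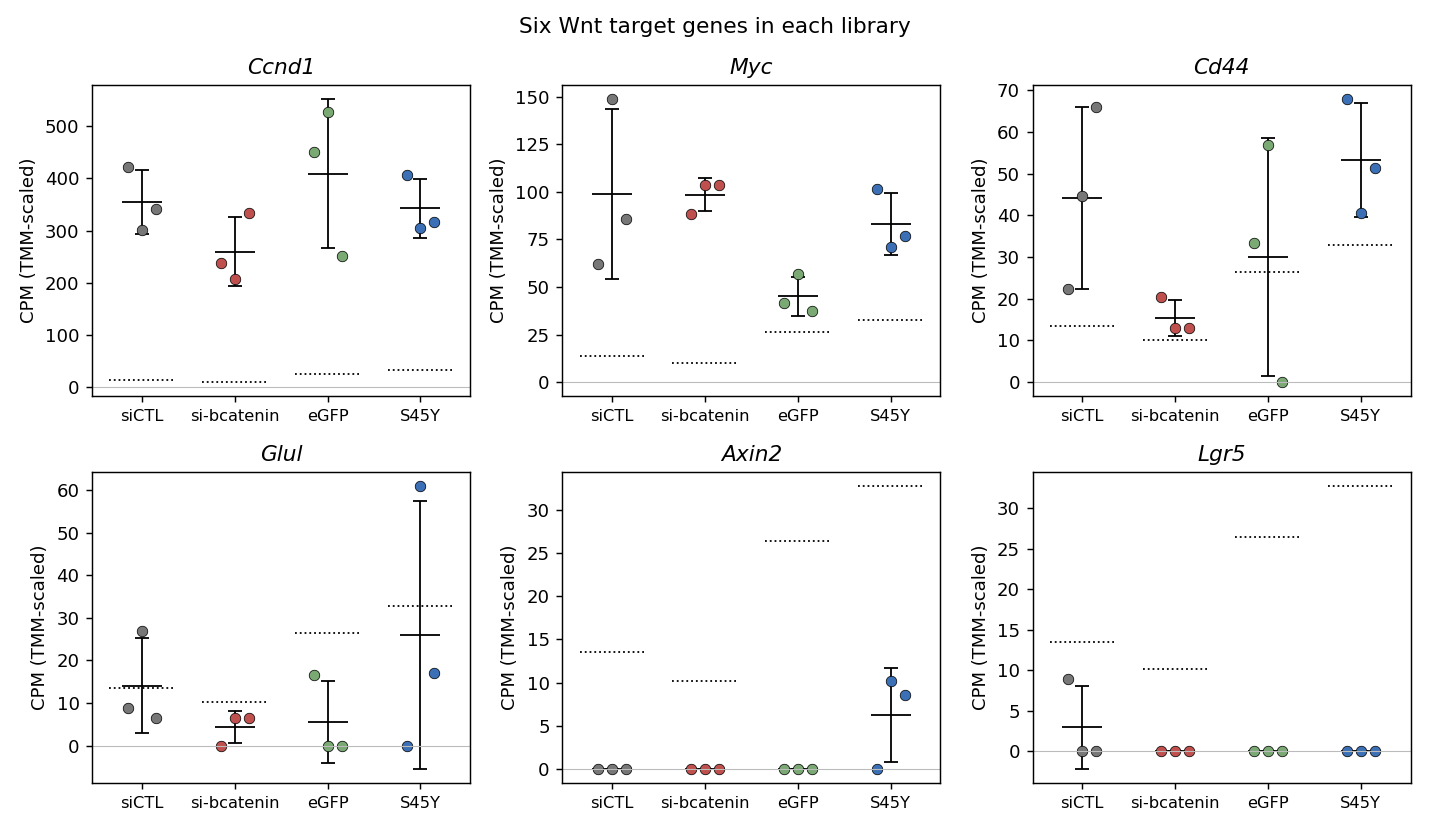
Level of the 6 genes in each library, in TMM-scaled CPM on a linear axis, for the 4 groups of 3 libraries; points are libraries, horizontal lines means, bars SD, and the dotted line is the level of 3 counts in the shallowest library of the group. Ccnd1 lies far above that line in all 12 libraries, Cd44 and Glul lie near it in several, and Axin2 and Lgr5 lie below it in all.

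Of the 6 genes, 3 (Cd44, Glul and Axin2) had a promoter in the RefSeq set for GRCm38.p6, and the 250 bases before the annotated start are shown for Cd44, which holds a TCF/LEF core, and for Axin2 as the standard feedback target. The core searched was CAAAG on either strand, written in capitals below, 5′ to 3′ on the gene's strand. Cd44 held 1 match, which begins 163 bases before the start of the gene, while Glul and Axin2 held none. The core occurred in 48.6% of 32851 promoters of this length. The longer forms, with the core preceded by AA, AT, TA or TT, occurred in 14.8% of promoters and in none of these 3. Matches of letters are a description of these windows, not binding sites. The Cd44 window is chr2:102901666-102901915 (minus strand) and the Axin2 window chr11:108920099-108920348 (plus strand).
Cd44: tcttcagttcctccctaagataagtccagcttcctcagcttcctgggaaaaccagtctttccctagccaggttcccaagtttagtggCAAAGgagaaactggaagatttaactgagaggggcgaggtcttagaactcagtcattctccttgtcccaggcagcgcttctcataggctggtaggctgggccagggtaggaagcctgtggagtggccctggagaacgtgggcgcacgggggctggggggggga
Axin2: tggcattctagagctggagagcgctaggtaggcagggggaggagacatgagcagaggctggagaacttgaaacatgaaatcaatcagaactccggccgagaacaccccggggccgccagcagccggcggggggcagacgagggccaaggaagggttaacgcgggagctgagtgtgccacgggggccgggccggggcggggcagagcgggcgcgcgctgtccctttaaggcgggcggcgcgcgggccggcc

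The targeted gene was examined first. Ctnnb1, the β-catenin gene (ENSMUSG00000006932.17, chr9:120929216-120960507, plus strand of mm10), had 13, 38 and 28 counts in siCTL and 0, 11 and 3 in si-bcatenin. This was 87.7 ± 28.0 CPM against 15.1 ± 18.4 CPM (SD, n = 3 each), with every silenced library below every control. The log2 fold change was -2.54 (SE 0.55, adjusted p = 0.00491, edgeR's quasi-likelihood test), so Ctnnb1 fell. Ctnnb1 passed edgeR's filter through siCTL, as only 1 si-bcatenin library had at least 10 counts, and with no filter on low counts the log2 fold change was -2.51 (adjusted p = 0.000274, edgeR). With 1 library left out the log2 fold change ran from -4.08 (without si-bcatenin replicate 2) to -1.98 (without si-bcatenin replicate 1). It was -2.31 without siCTL replicate 2 (adjusted p = 0.101, edgeR) and -2.30 without si-bcatenin replicate 3 (adjusted p = 0.0750, edgeR). In eGFP the counts of Ctnnb1 were 6, 11 and 10, in S45Y they were 11, 4 and 18, and the groups overlapped (log2 fold change 0.51, SE 0.55, adjusted p = 0.989, edgeR). The counts thus do not show the expression of the plasmid, and the sources used here do not say whether its transcript can be counted as mouse Ctnnb1. Ctnnb1 shares 759 exon bases with Ulk4 on the opposite strand, which had 129 counts over all libraries and a log2 fold change of -0.76 after silencing (SE 0.45, adjusted p = 0.516, edgeR).

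Ccnd1 was the most abundant of the 6 genes and the only one read in both comparisons. It lies at chr7:144929931-144939925 on the minus strand of mm10 (ENSMUSG00000070348.5) and shares 1100 exon bases with Oraov1 (LTO1) on the opposite strand, which had only 5 counts over all libraries. The siCTL libraries had 95, 101 and 104 counts of Ccnd1, or 422, 301 and 342 CPM. The si-bcatenin libraries had 70, 64 and 103 counts, or 238, 207 and 334 CPM. Of the silenced libraries, 2 lay below all controls and the third lay between the lowest and the middle control. The means were 355 ± 61.7 CPM in siCTL and 259.5 ± 65.9 CPM in si-bcatenin (SD, n = 3 in both groups), a log2 fold change of -0.47 (SE 0.20, 95% interval -0.87 to -0.07). Its unadjusted p was 0.0225 in edgeR's quasi-likelihood test, but the adjusted p over 3484 genes was 0.278. In DESeq2's Wald test the unadjusted p was 0.0745 and the adjusted p 0.465. Leaving out 1 library at a time gave log2 fold changes from -0.69 to -0.32, and the unadjusted p was above 0.05 without siCTL replicate 1, si-bcatenin replicate 1 or si-bcatenin replicate 2 (0.138, 0.0759 and 0.146, edgeR). The exact permutation p, two-sided and on log2 CPM, was 0.2, and 0.1 is the smallest p that 3 libraries against 3 allow.

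After S45Y, the Ccnd1 values were not higher than in eGFP. The eGFP libraries had 54, 65 and 27 counts, or 450.1, 527 and 251 CPM, and the S45Y libraries 36, 30 and 37 counts, or 407, 305 and 316 CPM. All 3 S45Y libraries lay between the lowest and the middle eGFP library. The log2 fold change was -0.23 (SE 0.28, 95% interval -0.79 to 0.32, adjusted p = 0.989, edgeR), which does not cover an increase beyond 0.32 on the log2 scale. The exact permutation p was 0.6 (two-sided). With eGFP replicate 3, the lowest of its group, left out, the log2 fold change was -0.51 (unadjusted p = 0.0889, edgeR). Without eGFP replicate 2, the highest, it was -0.027 (unadjusted p = 0.934, edgeR), and these were the ends of the range with 1 library left out. The estimates after silencing and after S45Y thus had the same sign, but the interval after S45Y covers 0. The difference between them was -0.17 (SE 0.34, 95% interval -0.85 to 0.51, adjusted p = 0.940, edgeR, 12 libraries).

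Across the 4 groups the mean level of Ccnd1 ran from 259.5 CPM in si-bcatenin over 343 ± 56.2 in S45Y and 355 in siCTL to 409 ± 143 in eGFP. Neighbors in this order did not differ beyond their spread (adjusted p from 0.255 to 0.961, edgeR, fit of 12 libraries). Of the 6 pairs of groups, 1 passed the threshold, eGFP against si-bcatenin, with a log2 difference of 0.70 (SE 0.24, adjusted p = 0.0259). For that pair 8.11% of 2996 genes were called higher and 19.9% were called in all. The pair crosses the siRNA and plasmid libraries, and its groups overlapped (exact permutation p = 0.2, two-sided).

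The 3 D-type cyclins bind the same kinases, Cdk4 and Cdk6, and their counts allow a ratio within each library that needs no scaling. This measure was chosen after the values were seen. Ccnd1 made up 76.0, 78.3 and 78.8% of the D-type cyclin counts in siCTL and 58.3, 66.0 and 69.1% in si-bcatenin, so the groups did not overlap. The means were 77.7 ± 1.49% and 64.5 ± 5.55% (SD, n = 3 each), and no test is given for a measure chosen in this way. In eGFP the share was 79.5 ± 10.5% and in S45Y 79.4 ± 7.25%, with overlapping groups. Ccnd3 contributed to the shift after silencing, with 18, 18 and 18 counts in siCTL against 36, 27 and 38 in si-bcatenin. Its level was 64.3 ± 13.9 CPM in siCTL and 111 ± 20.4 CPM in si-bcatenin (log2 fold change 0.77, SE 0.33, unadjusted p = 0.0225, adjusted p = 0.278, edgeR). Ccnd3 shares 361 exon bases with Bysl on the opposite strand, a gene of 1171 counts with a log2 fold change of 0.06 (SE 0.15). Ccnd2 had 32 counts in siCTL and 28 in si-bcatenin (log2 fold change -0.32, adjusted p = 0.886, edgeR). It shares 368 exon bases with 9330179D12Rik on the opposite strand, which had 75 counts over all libraries against 86 for Ccnd2, and the part of such overlaps in the D-type cyclin share was not tested.

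**Figure D2:**
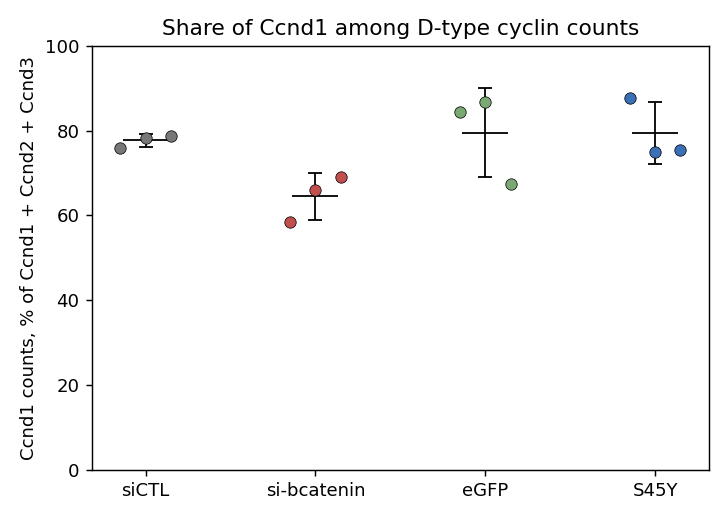
Ccnd1 counts as a percent of the summed Ccnd1, Ccnd2 and Ccnd3 counts in each library, on a linear axis from 0 to 100%, with points for libraries, horizontal lines for means and bars for SD (n = 3 per group). The si-bcatenin libraries (58.3 to 69.1%) lie below the siCTL libraries (76.0 to 78.8%), while eGFP and S45Y overlap.

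Myc had the same total count in both siRNA groups. It lies at chr15:61985391-61990374 on the plus strand of mm10 (ENSMUSG00000022346.15), with no annotated exon overlap. It had 14, 50 and 26 counts in siCTL (62.2, 149 and 85.6 CPM) and 26, 32 and 32 in si-bcatenin (88.4, 104 and 104 CPM), or 90 counts in all in each group. The silenced libraries lay inside the range of the controls, which was set by siCTL replicates 1 and 2. The means were 98.9 ± 44.8 and 98.5 ± 8.79 CPM (SD, n = 3 each; exact permutation p = 0.9, two-sided). The log2 fold change was -0.07 (SE 0.31, 95% interval -0.70 to 0.56, adjusted p = 0.966, edgeR), and it was 0.37 without siCTL replicate 2, with a range from -0.28 to 0.37 over the libraries left out in turn.

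Myc was thinly counted in the plasmid libraries, at 5, 7 and 4 counts in eGFP (41.7, 56.8 and 37.1 CPM) and at 9, 7 and 9 in S45Y (102, 71.1 and 76.9 CPM), too few to read by the rule above. Every S45Y library was higher than every eGFP library in CPM, but a count of 7 occurred in both groups. The means were 45.2 ± 10.3 and 83.3 ± 16.3 CPM (SD, n = 3 each; exact permutation p = 0.1, two-sided). Among the 3218 genes with at least 5 counts in 3 libraries, 4.69% had S45Y above eGFP without overlap. With that looser filter the log2 fold change of Myc was 0.87 (SE 0.62, 95% interval -0.38 to 2.11, unadjusted p = 0.169, adjusted p = 0.999, edgeR), and DESeq2's Wald test gave 0.87 (unadjusted p = 0.201). The pooled counts of 25 and 16 gave a ratio of S45Y to eGFP of 1.82, with a counting interval of 0.932 to 3.64. The difference between silencing and S45Y was -0.90 (SE 0.65, 95% interval -2.18 to 0.39, adjusted p = 0.685, edgeR, 12 libraries). Myc passed the filter of this fit through the siRNA libraries, so that this difference is given as a description.

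The lowest Myc level of the 4 groups was that of eGFP. It was followed by S45Y (83.3 CPM), si-bcatenin (98.5) and siCTL (98.9), and no pair of neighbors in this order differed beyond its spread (adjusted p from 0.755 to 0.992, edgeR). Both siRNA groups had a higher mean than eGFP. The log2 difference of eGFP from siCTL was -1.12 (SE 0.47, unadjusted p = 0.0195, adjusted p = 0.104, edgeR), where 13.6% of 2996 genes were called. That from si-bcatenin was -1.07 (SE 0.47, adjusted p = 0.101, edgeR), where 19.9% were called. No eGFP library had 10 counts of Myc, which passed the filter of this fit through the siRNA libraries, so that both differences are given as a description. The mean of S45Y lay nearer to those of both siRNA groups than to that of eGFP, a difference of distances that was not tested.

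Cd44 was lower in si-bcatenin than in siCTL in CPM, on few counts, and did not pass the adjusted threshold. The gene lies at chr2:102811141-102901665 on the minus strand of mm10 (ENSMUSG00000005087.17), with no annotated exon overlap, and its window with the TCF/LEF core is shown above. It had 5, 15 and 20 counts in siCTL (22.2, 44.6 and 65.9 CPM) and 6, 4 and 4 in si-bcatenin (20.4, 12.94 and 12.95 CPM). The groups did not overlap in CPM, but the lowest control count, 5, was below the highest silenced count, 6. The means were 44.2 ± 21.8 and 15.4 ± 4.30 CPM (SD, n = 3 each; exact permutation p = 0.1, two-sided). Among the 5347 genes with at least 5 counts in 3 libraries, 7.52% had si-bcatenin below siCTL without overlap. Cd44 passed that filter through siCTL, as only 1 si-bcatenin library had at least 5 counts, so that its test is given as a description. The log2 fold change was -1.54 (SE 0.57, 95% interval -2.69 to -0.38) and the unadjusted p 0.0103, but the adjusted p was 0.249 (edgeR), and 4.51% of those genes had an unadjusted p below 0.05 with a lower value. DESeq2's Wald test gave -1.55 (unadjusted p = 0.0461, no adjusted p given). The pooled counts of 14 and 40 gave a ratio of 0.321, with a counting interval of 0.161 to 0.603, and leaving out single libraries gave ratios from 0.270 to 0.417.

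After S45Y, Cd44 had the opposite sign but was not readable. There were 4, 7 and 0 counts in eGFP (33.3, 56.8 and 0 CPM) and 6, 4 and 6 in S45Y (67.9, 40.6 and 51.3 CPM). The groups overlapped, and eGFP replicate 3 had no count. The means were 30.0 ± 28.5 and 53.2 ± 13.7 CPM (SD, n = 3 each; exact permutation p = 0.3, two-sided). The pooled ratio was 1.69 (counting interval 0.737 to 4.03), and it was 1.15 without eGFP replicate 3 and 3.04 without eGFP replicate 2. With the looser filter the log2 fold change was 0.78 (SE 0.85, adjusted p = 0.999, edgeR). The test of silencing against S45Y with that filter gave a difference of -2.26 (SE 0.996, 95% interval -4.23 to -0.30, unadjusted p = 0.0244, adjusted p = 0.518, edgeR). In that test 3.45% of 5738 genes had an unadjusted p below 0.05 with a lower value. Cd44 was too low to read in both comparisons by the rule above, so that this difference is given as a description.

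Glul was counted in only 8 of the 12 libraries. It lies at chr1:153899944-153909723 on the plus strand of mm10 (ENSMUSG00000026473.15) and shares 116 exon bases with Teddm2 on the opposite strand, which had 6 counts over all libraries. It had 2, 9 and 2 counts in siCTL, 0, 2 and 2 in si-bcatenin, 2, 0 and 0 in eGFP and 0, 6 and 2 in S45Y. In single libraries, only siCTL replicate 2 (26.8 CPM) and S45Y replicate 2 (60.9 CPM) were above 3 counts. The pooled ratio was 0.282 after silencing (4 against 13 counts, counting interval 0.0670 to 0.914), and 0.562 without siCTL replicate 2 (interval 0.105 to 3.02). After S45Y it was 4.65 (8 against 2 counts, interval 0.928 to 44.9), and 1.70 without S45Y replicate 2. Both estimates moved by more than 1.5 times with 1 library, and edgeR's filter removed the gene from both comparisons. DESeq2's Wald test gave log2 fold changes of -1.72 after silencing (unadjusted p = 0.226) and 2.21 after S45Y (unadjusted p = 0.249). The exact permutation p was 0.1 for silencing and 0.4 for S45Y (two-sided, n = 3 each). Libraries with 2 counts occurred in both siRNA groups.

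Axin2 and Lgr5 could not be read in any group. Axin2 (ENSMUSG00000000142.15, chr11:108920349-108950783, plus strand of mm10) had 1 count in S45Y replicate 2, 1 in S45Y replicate 3 and none in the other 10 libraries. Its annotated exons share 209 bases with Gm11670 on the opposite strand. Lgr5 (ENSMUSG00000020140.15, chr10:115450311-115587780, minus strand) had 2 counts in siCTL replicate 1 and none elsewhere. No library exceeded 3 counts of either gene, and fold changes are left out. Over the 3 libraries of a group together, 3 counts are 3.55 CPM in siCTL by unscaled totals, 3.26 in si-bcatenin, 8.47 in eGFP and 9.85 in S45Y, the same floor of 3 counts applied to a whole group.

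**Figure D3:**
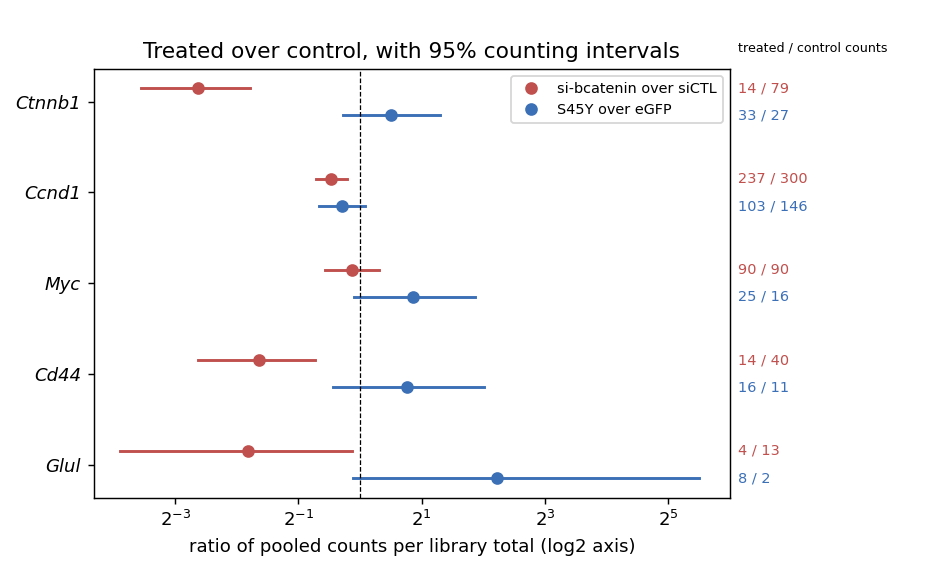
Ratio of pooled counts per library total, treated over control, on a log2 axis for Ctnnb1 and the 4 members with counts in both groups; bars are 95% counting intervals, which leave out the spread between libraries, and the dashed line is a ratio of 1. For Ccnd1 both ratios lie below 1, with the interval after S45Y crossing it, and for Myc the silencing ratio is near 1. For Cd44 and Glul the ratios lie on opposite sides of 1 with the intervals after S45Y crossing it.

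Set side by side, 0 of the 2 members tested after silencing and 0 of the 1 tested after S45Y passed an adjusted p of 0.05 in edgeR, where 1.55% of 3484 genes and 0% of 1819 genes passed. Of the 2 members that the filter kept for a difference between silencing and S45Y 0 passed, against 0.534% of 2996 genes. Of these, Myc was kept through the siRNA libraries and could not be read after S45Y. At an unadjusted p below 0.05 the members passing were Ccnd1 after silencing and none after S45Y, against 12.5% and 5.88% of the genes tested. With DESeq2's Wald test, run without edgeR's filter, Cd44 after silencing was the only member with an unadjusted p below 0.05 in these 2 comparisons. Cd44 had no adjusted p there, which DESeq2 withholds from genes under its own filter on mean counts. In that test 2.39% of 13362 genes after silencing and 1.32% of 12569 after S45Y were below 0.05. For the difference between silencing and S45Y DESeq2 gave -2.33 for Cd44 (unadjusted p = 0.0196) and -3.93 for Glul (unadjusted p = 0.0448), both without an adjusted p, where 3.56% of 14374 genes were below 0.05. Both genes were too low to read in either comparison, so that these values are given as a description. Only siCTL replicate 2 and S45Y replicate 2 had more than 3 counts of Glul. Estimates after silencing and after S45Y lay on opposite sides of no change for Cd44 and Glul, and on the same side for Ccnd1. For Ccnd1 the interval after S45Y covers 0, and without eGFP replicate 2 that estimate was -0.027. For Myc the silencing estimate was close to 0, at -0.07 in edgeR and 0.07 as the difference of mean log2 CPM, and has no side to compare. Per kilobase of exon, the mean level in siCTL was 75.4 ± 13.1 CPM for Ccnd1, 36.4 ± 16.5 for Myc, 6.53 ± 3.22 for Cd44 and 4.24 ± 3.33 for Glul (SD, n = 3), while Lgr5 had 0.866 in replicate 1 alone and Axin2 was at 0. On this scale Cd44 and Glul had overlapping ranges in siCTL (3.28 to 9.72 and 1.98 to 8.06).

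The same limit held for the pathway around these genes. Of 21 feedback and negative regulator targets of Wnt, 10 had no count in any library, among them Nkd1, Notum, Rnf43 and Sp5, and 0 could be tested in either comparison. The best counted were Cdx2 (42 counts over 12 libraries), Tcf7 (37) and Nkd2 (21). Of 15 β-catenin targets of hepatocytes, the class that includes Glul, 8 were counted and 0 tested, and Cyp2e1, Cyp1a2 and Rhbg were at 0. Of 28 growth and adhesion targets, the class of Ccnd1, Myc and Cd44, 8 were tested after silencing and 5 after S45Y, and 0 passed an adjusted p of 0.05 in edgeR in either, where 1.55% and 0% of all genes tested passed. Their median log2 fold change was -0.12 after silencing (2 above 0 and 6 below) and 0.01 after S45Y, next to -0.0033 and 0.020 for all genes tested.

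**Figure D4:**
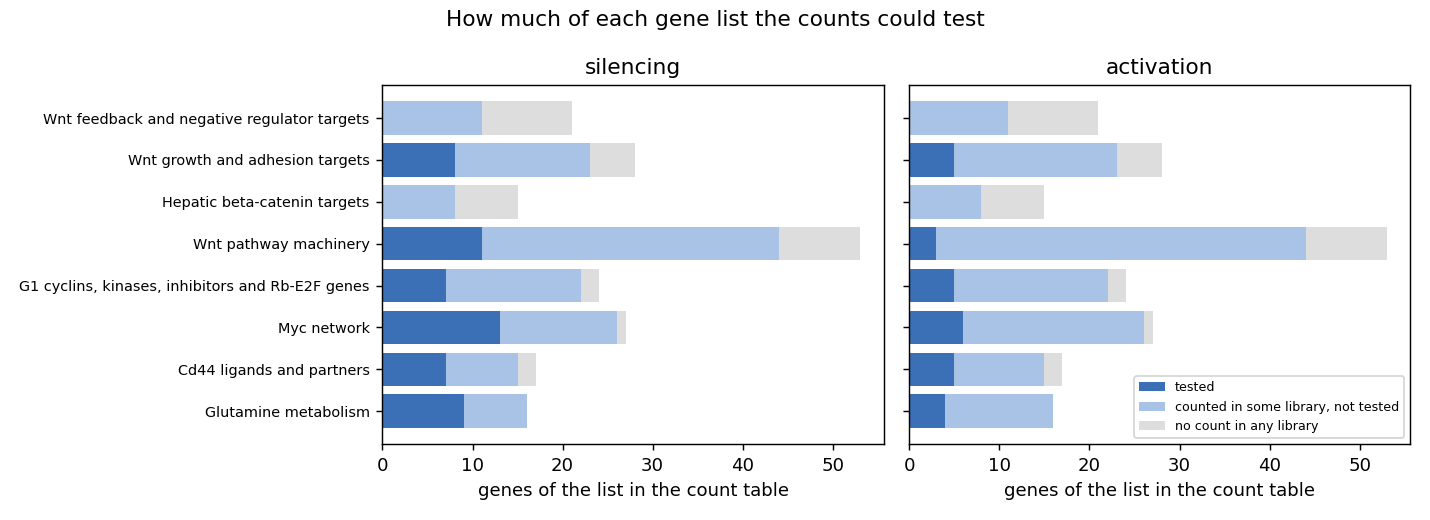
Number of genes in 8 lists around the members that were tested, counted in some library but not tested, or without a count in any library, for silencing (left) and activation by S45Y (right). The feedback targets (21 genes) and hepatic β-catenin targets (15 genes) hold none that could be tested in either comparison.

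In the growth and adhesion list, 3 of the 8 genes tested had an unadjusted p below 0.05 after silencing, Ccnd1, Fn1 and Sox4, where 12.5% of all genes tested did. Fn1, which encodes the matrix protein fibronectin, had 56, 51 and 67 counts in siCTL and 36, 35 and 38 in si-bcatenin. This was 207 ± 49.9 against 119.6 ± 5.46 CPM (SD, n = 3 each), without overlap (log2 fold change -0.81, SE 0.25, adjusted p = 0.0838, edgeR). Sox4, a transcription factor of progenitor cells, had the opposite sign, also without overlap. It had 371 ± 16.6 CPM in siCTL and 493 ± 46.0 CPM in si-bcatenin (log2 fold change 0.37, SE 0.16, adjusted p = 0.279, edgeR). Sox4 shares 2616 exon bases with Gm26735 on the opposite strand. After S45Y the log2 fold changes were 0.47 for Fn1 (SE 0.45) and 0.01 for Sox4 (SE 0.30), both with adjusted p above 0.98 (0.989 and 0.998, edgeR).

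Of 53 Wnt machinery genes with a row among the counts, 11 were tested after silencing, and 2 fell, Ep300 and the siRNA target Ctnnb1 itself, where 1.55% of all 3484 genes tested were called. Ep300 encodes p300, a histone acetyltransferase that serves β-catenin as coactivator. It had 25, 26 and 24 counts in siCTL and 16, 6 and 3 in si-bcatenin, or 89.2 ± 19.0 and 27.8 ± 23.5 CPM (log2 fold change -1.70, SE 0.46, adjusted p = 0.0483, edgeR). Ep300 too passed the filter through siCTL, with at least 10 counts in only 1 si-bcatenin library, and with no filter the log2 fold change was -1.67 (adjusted p = 0.0445, edgeR). Its log2 fold change ran from -2.59 to -1.28 with 1 library left out, and the adjusted p was 0.00437 without si-bcatenin replicate 1 and 0.00691 with the replicate number as a block (edgeR). The call was lost under other settings, where the adjusted p was 0.0514 with RLE size factors, 0.0603 with the looser filter, and up to 0.280 with 1 library left out (0.214, 0.104, 0.0526, 0.153 and 0.280 without siCTL replicates 1, 2 and 3 and si-bcatenin replicates 2 and 3). Crebbp, the related acetyltransferase CBP, had 71.0 ± 11.4 CPM in siCTL and 32.9 ± 6.55 in si-bcatenin without overlap (log2 fold change -1.13, SE 0.43, adjusted p = 0.204, edgeR). After S45Y, 3 genes of the machinery were tested, Ctnnb1, Gsk3a and Ep300, all with log2 fold changes above 0 (0.51, 0.31 and 0.69) and 0 past an adjusted p of 0.05 in edgeR, unadjusted p included.

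Around the single members, 0 genes passed an adjusted p of 0.05 in either comparison (edgeR), against 1.55% of all genes tested after silencing and 0% after S45Y. Of 24 G1 cyclins, kinases, inhibitors and Rb-E2F genes 7 were tested after silencing, with Ccnd1 and Ccnd3 at an unadjusted p below 0.05 in opposite directions (2 of 7, against 12.5% of all genes tested). Of 27 genes of the Myc network 13 were tested after silencing and 6 after S45Y, with median log2 fold changes of 0.017 and 0.00042 and none at an unadjusted p below 0.05. Of 17 Cd44 ligands and partners 7 were tested after silencing. Among them Spp1, which encodes the ligand osteopontin and was also on the cholangiocyte list, had 255 ± 90.0 CPM in siCTL and 159 ± 46.9 in si-bcatenin (log2 fold change -0.74, SE 0.24, adjusted p = 0.126, edgeR). After S45Y 2 of the 5 tested, Ezr and Has3, were at an unadjusted p below 0.05, against 5.88% of all genes tested, in opposite directions. Ezr, which encodes the linker ezrin that ties Cd44 to actin, had 516 ± 79.0 CPM in eGFP and 295 ± 93.3 in S45Y (log2 fold change -0.75, SE 0.27, adjusted p = 0.604, edgeR), and the hyaluronan synthase Has3 had a log2 fold change of 0.41 (SE 0.20, adjusted p = 0.841). Of 16 genes of glutamine metabolism 9 were tested after silencing, and 2 were at an unadjusted p below 0.05, both above 0, where 12.5% of all genes tested were. These were Ppat, an enzyme of purine synthesis that uses glutamine, with 72.9 ± 5.50 CPM in siCTL and 135 ± 16.1 in si-bcatenin (log2 fold change 0.85, SE 0.29, adjusted p = 0.144, edgeR), and the transporter Slc38a2 (log2 fold change 0.56, SE 0.21, adjusted p = 0.183).

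Over the 12 libraries, the 3 genes whose log2 CPM followed Ccnd1 most closely among 2995 genes were Tsr2, Dos and Uchl4 (Pearson r 0.833, 0.831 and 0.805). For Myc they were Mettl23, Nhlrc2 and Dst (r 0.868, 0.847 and 0.818). These are the highest of many correlations over libraries that share their depth and transfection reagent within a group, and they are given as a description. Tsr2 shares 1151 exon bases with Fgd1 and Mettl23 shares 460 with Srsf2, both on the opposite strand.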

How the data were processed

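RNA of 12 SMCC libraries was sequenced by the authors, who checked reads with FastQC, filtered them with Trimmomatic 0.38, aligned them to mm10 with HISAT2 2.1.0 and counted them per gene with HTSeq 0.11.2 (versions from the submitters' processing notes). The authors deposited whole-number counts per gene symbol without normalization. The gene annotation, read type and strand setting are not given in the sources used here. Libraries were grouped by their labels. Low genes were removed with filterByExpr (at least 10 counts and 15 in total), TMM factors set the library sizes, and the rest were tested with edgeR's quasi-likelihood test (edgeR 4.0.16, R 4.3.3) with Benjamini-Hochberg adjustment over all genes tested. Silencing and activation were fitted on 6 libraries each, and their difference and the pairs of groups on 12. DESeq2, which the study used, was an alternative (here in version 1.42.0), as were other size factors, a filter of 5 counts in 3 libraries, the replicate number as a block, another prior count (0.5 for 2) and each library left out. Single genes were also tested with exact permutation tests of log2 CPM. Pooled ratios used library totals, with exact 95% counting intervals. Library totals of 91468 to 326686 counts set the precision. Positions and overlaps came from GENCODE M21 (mm10) and promoters from RefSeq (GRCm38.p6). The code was tested on simulated data. The members and the gene lists were chosen with earlier results of these data known. Named genes were the members, Ctnnb1, genes overlapping them, list genes with adjusted p below 0.05, genes of the Wnt lists with unadjusted p below 0.05 (at most 5 per list), and the 3 genes most correlated with each member kept over 12 libraries. Other genes were named after their values were seen: Ccnd2, Ccnd3, Spp1, Ezr, Has3, Ppat, Slc38a2, and genes given by their counts alone.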

Additional observations from a re-analysis of the deposited data

How the results depend on the processing

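The log2 fold changes of Ccnd1 after silencing and after S45Y kept their sign under all 14 alternatives each, though that after S45Y was only -0.027 without eGFP replicate 2. Neither Ccnd1 nor Myc passed an adjusted p of 0.05 in silencing or activation under any alternative that tested it. Without siCTL replicate 2 and without si-bcatenin replicate 1, the log2 fold change of Myc after silencing reversed to 0.37 and 0.0064 (range -0.28 to 0.37 over the libraries left out), and the pooled Myc ratio ranged from 0.801 to 1.27. The difference for Ccnd1 between silencing and activation reversed to 0.065 without eGFP replicate 3 (range -0.40 to 0.065). The causes were not tested. The 54 genes called after silencing became 31 to 49 with a library left out (31, 32 and 34 without si-bcatenin replicate 2, si-bcatenin replicate 3 and siCTL replicate 1) and 38 to 64 otherwise. The 16 genes that differed between the comparisons became 5 to 22 (5 without S45Y replicate 1, 8 without siCTL replicate 1 or si-bcatenin replicate 3) and 11 to 17 otherwise. The count after S45Y was 0 under all 14 alternatives. List genes called after silencing went from 2 to 1 with the filter of 5 counts in 3 libraries, which tests more genes. The Ctnnb1 difference was -2.98, at an adjusted p of 0.0513 (edgeR). It passed the threshold under 6 alternatives, DESeq2 (0.0345) among them, and stayed above it under 13. The latter included no filter on low counts (0.0620, edgeR), the replicate block (0.0601, edgeR) and the fit without S45Y replicate 3 (0.175, edgeR).

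Replicate numbers did not pair the libraries: same-numbered libraries of a treatment and its control had correlations of -0.050 to 0.031. With the replicate number as a block, 64 genes were called after silencing and 17 differed between the comparisons, and the log2 fold change after silencing was -0.49 for Ccnd1 (adjusted p = 0.207, edgeR). The block in the fit of 12 libraries, an alternative chosen after seeing the data, gave 0.0058 for Myc in si-bcatenin against siCTL, where the value without it was -0.05. Leaving libraries out of the D-type cyclin share, also chosen after seeing the data, gave differences of -15.5 to -10.1 percentage points after silencing. By edgeR's filter, 4 of the 6 genes had too few counts to test after silencing and 5 after S45Y.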
